A study of Homo sapiens with 59 samples.

Results

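Jurkat, a leukaemic human T cell line, was grown for the study in media low in a single essential amino acid, and the mRNA of whole cultures was sequenced on day 3. The response to low histidine is set here against the response to low methionine, gene by gene. The groups are cells given 25% histidine, their histidine control, cells given 25% methionine and their methionine control, all Jurkat and all collected on day 3, with 5 libraries each. These are 20 of the 59 libraries of the series. The labels do not state the medium of the controls. They also do not say whether the 5 libraries of a group are separate cultures. The p-values therefore measure only how these libraries vary, and that variation may be technical. A response is the mean log2(normalised count + 1) of the restricted libraries minus that of their own controls, within the table deposited for that amino acid. The difference between the responses is the histidine response minus the methionine response, an interaction over the 4 groups, so a value above 0 means higher in histidine restriction relative to methionine restriction. It was computed for the 16505 genes whose mean reached 10 normalised counts in both tables, of 32688 genes in either table and 27441 in both. A gene was called where its Benjamini-Hochberg adjusted p from limma, a linear model fitted across all genes, lay below 0.05, and the words rose and fell are used only of called genes. Log2 values are given ± SE over 5 libraries a group.

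Human cells cannot make histidine, and methionine is likewise essential although homocysteine can be remethylated to it, so both must be taken up. A shortage of an amino acid leaves its transfer RNA uncharged, which activates the kinase GCN2. GCN2 phosphorylates the translation factor eIF2, and the transcription factor ATF4 is then translated and raises genes for amino acid uptake, amino acid synthesis and transfer RNA charging. Shortage also lowers the activity of mTORC1, the kinase complex that favours translation of ribosomal protein mRNAs. Methionine has a further role, because the enzyme MAT2A turns it into S-adenosylmethionine, the methyl donor for RNA, histones and phospholipids.

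The normalised counts of a library added up to 14.9 to 17.5 M, which is the depth these files show, since whole reads could not be recovered from them. All 16 T-lineage markers examined, among them CD3E and LCK, lay above 10 normalised counts in every library. Of these, 3 were higher and 7 lower in histidine restriction, and 1 was higher and 7 lower in methionine restriction (4 higher and 2 lower at equal totals). Histidine control 3 stood apart. The collagen mRNA COL3A1 had 7976 normalised counts there and at most 20.8 in the other histidine controls, COL1A1 had 4358 against at most 298, and 23 genes lay more than 10-fold above every other histidine control at over 50 normalised counts, against 0 to 3 genes in each other library. Of 18 markers of other cell types, 14 had a row in a table, and MS4A1, LYZ, CSF1R and EPCAM had none and give no value here. Histidine control 3 also held 291 normalised counts of CDH1 and 228 of KRT19, both epithelial, against at most 20.0 and 4.82 elsewhere, while CD14 (myeloid cells) and PAX5 (B cells) reached at most 16.5 and 22.0 in any library. The summed level of those with a row was 702 to 826 in histidine restricted libraries, 13320 in histidine control 3, 595 to 709 in the other histidine controls, 939 to 1182 in methionine restricted libraries and 472 to 654 in methionine controls. Of these markers 4 had a mean of at least 10, and one of these was CD79A, a B-lineage gene that averaged 739 ± 77.3 in methionine restricted libraries and 222 ± 15.6 in methionine controls (SD, n = 5 each). Its part in the results was not tested. The part of histidine control 3 in the results was examined by leaving it out: 5573 genes were then called for the difference between the responses, against 5671 with it, and 5273 were called both ways. Values without it are given below for the named genes whose calls it changed.

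The difference between the responses was called for 5671 genes (34.4% of those tested), 3071 above 0 (18.6%) and 2600 below 0 (15.8%). At an unadjusted p below 0.05 there were 7175 (43.5%). Of the same 16505 genes, 4794 (29.0%) were called in the histidine response, 2754 higher (16.7%) and 2040 lower (12.4%), and 8872 (53.8%) in the methionine response, 4605 higher (27.9%) and 4267 lower (25.9%). Within all genes of each table that reached the mean, 27.9% of 17740 were called for histidine and 53.2% of 16889 for methionine. Called changes of at least 2-fold numbered 717 for histidine and 2756 for methionine. The split of the difference depended on the scaling: 54.2% of called genes lay above 0 with the deposited scaling and 43.6% when every library was scaled to the same total. That scaling put the median methionine response of all genes at 0.14 log2 units, against 0.01 as deposited, and the higher share of methionine calls at 62.3%, against 51.9%.

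Of the 3291 genes called in both responses (19.9%), 2853 moved the same way and 438 moved in opposite directions (2.65% of all genes). In 1837 genes (11.1%) that moved the same way the difference was not called, 1178 higher (7.14%) and 659 lower (3.99%) in both. For 950 of these (5.76%) the 95% interval of the difference lay within 0.5 log2 units of 0, so that a difference beyond that size is outside their intervals, and for the rest the interval is wider and a difference of that size remains possible. In 1016 genes (6.16%) the direction was shared and the difference was called, 480 higher (2.91%) and 536 lower (3.25%) in both. The methionine change was the larger one in 938 of them (5.68%) and the histidine change in 78 (0.473%). The 438 opposed genes comprised 286 that rose in histidine and fell in methionine restriction (1.73%) and 152 that did the reverse (0.921%). A further 689 genes (4.17%) were called in the histidine response alone together with a called difference, 387 higher (2.34%) and 302 lower (1.83%). In the methionine response alone these were 3263 genes (19.8%), 1541 higher (9.34%) and 1722 lower (10.4%). Across the 16505 genes the responses had a Pearson r of 0.38 and a Spearman rho of 0.41, which describes genes within 20 libraries and is not a test, since genes are not independent replicates.

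**Figure D1:**
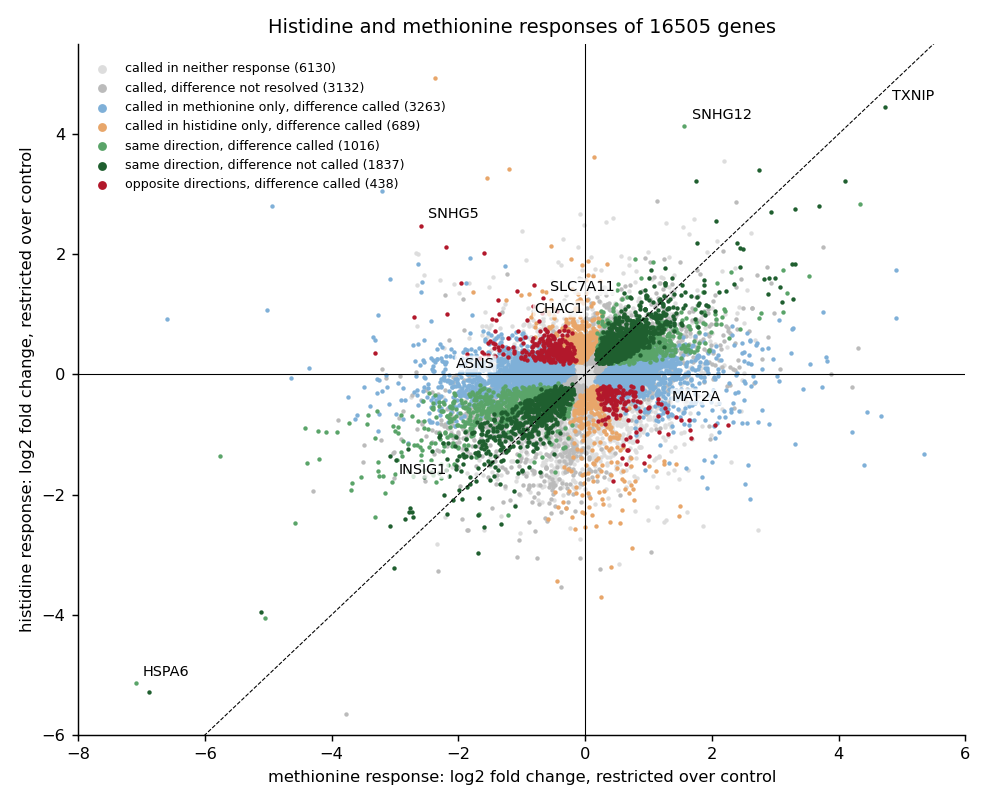
The plot of both responses shows each of the 16505 genes as a point, with the methionine log2 fold change on the horizontal axis and the histidine log2 fold change on the vertical axis, restricted over control. The dashed line marks equal responses, colours mark which calls a gene passed, with the number of genes in brackets, and the cloud is wider along the methionine axis than along the histidine axis.

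The largest shared rise, by the smaller of a gene's 2 responses, was that of TXNIP, a thioredoxin-binding arrestin that restrains glucose uptake and is switched on by the glucose sensor MondoA (chr1:145992435-145996579, GRCh38.p14). It had 14060, 12550, 12870, 12520 and 11440 normalised counts in histidine restricted libraries and 369, 479.6, 1534, 515 and 469.9 in histidine controls. It had 13430, 13950, 13180, 14720 and 14180 in methionine restricted libraries, against 500.5, 516, 522, 533 and 538 in methionine controls. Every restricted library of both kinds lay far above every control, and histidine control 3 was the highest control. The histidine response was 4.45 ± 0.28 log2 units (adjusted p = 1.55e-07) and the methionine response 4.73 ± 0.06 (adjusted p = 7.67e-16). Their difference was -0.29 ± 0.32 (adjusted p = 0.516), and without histidine control 3 it was 0.06 ± 0.11 (adjusted p = 0.687). The promoter of TXNIP is printed because it carries, in capitals, the carbohydrate response element that MondoA is known to bind, searched on both strands as CACGNG, then 5 bases of any kind, then CACGNG again. The 250 bases before the start are shown (RefSeq, GRCh38.p14, chr1:145996580-145996829, minus strand, written in the direction of the gene).
TXNIP: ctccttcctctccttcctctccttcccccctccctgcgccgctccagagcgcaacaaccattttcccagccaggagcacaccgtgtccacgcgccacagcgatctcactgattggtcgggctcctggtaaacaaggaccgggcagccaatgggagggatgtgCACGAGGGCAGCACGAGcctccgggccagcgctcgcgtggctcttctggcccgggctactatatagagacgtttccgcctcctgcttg
Of 11186 tested genes with a RefSeq promoter window of 300 bases, 16 (0.143%) held this pattern, and TXNIP was the only one of 7 measured arrestin relatives and MondoA partners that did. A match is a description of the letters and not a bound site.

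ARRDC4, the closest relative of TXNIP and likewise a MondoA target, rose in both restrictions but further in methionine restriction. It had 463, 488, 495, 467 and 397 normalised counts in histidine restricted libraries, against 56.7, 52.4, 80.4, 82.5 and 53.1 in histidine controls. It had 921, 769.7, 858, 831 and 948 in methionine restricted libraries, against 26.1, 56.6, 37.8, 41 and 56.5 in methionine controls. The difference of -1.50 ± 0.25 (adjusted p = 8.13e-05) was called, and neither pair of groups overlapped. Levels of the histidine and methionine tables are normalised separately, so only the responses are compared between them. Of the 7 listed members 3 rose in histidine and 6 in methionine restriction, and the difference was below 0 for 4. These include ARRDC3, an arrestin that restrains receptor signalling, and MLX, the partner of MondoA, both called in methionine restriction alone.

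Other genes that rose together in both were KLF10, an early response repressor of transcription, RGS16, a brake on G protein signalling, ANTKMT, a mitochondrial lysine methyltransferase, and IRF7, the interferon regulatory factor. KLF10 rose 4.26-fold in histidine and 5.61-fold in methionine restriction, with 832 to 1070 normalised counts in histidine restricted libraries, 137 to 306 in histidine controls, 1260 to 1377 in methionine restricted libraries and 213 to 249 in methionine controls. In histidine restriction RGS16 rose 3.45-fold, ANTKMT 2.98-fold and IRF7 2.59-fold, and in methionine restriction RGS16 rose 5.42-fold, ANTKMT 3.67-fold and IRF7 2.99-fold. In each of these 4 genes every restricted library exceeded every control of its table. The adjusted p of the difference was 0.127 for KLF10, 0.0857 for RGS16, 0.195 for ANTKMT and 0.617 for IRF7, with 95% intervals that reach beyond 0.5 log2 units in all 4 and so leave room for unequal rises. The difference was called for KLF10 without histidine control 1 (-0.56, adjusted p = 0.00619) and for RGS16 without histidine control 5 (-0.79, adjusted p = 0.0285) or methionine control 5 (-0.76, adjusted p = 0.0479). RAD9B, a paralogue of a DNA damage checkpoint subunit, the long non-coding RNA LINC01260 and ZNF185, an actin-binding protein, also rose in both, with responses of 1.33 ± 0.29 in histidine and 1.41 ± 0.28 in methionine restriction for RAD9B, 2.19 ± 0.19 in histidine and 1.77 ± 0.20 in methionine restriction for LINC01260 and 1.61 ± 0.14 in histidine and 1.38 ± 0.20 in methionine restriction for ZNF185. DDIT4, an inhibitor of mTORC1 and a known ATF4 and hypoxia target, fell in both, to 2091, 1807, 2150, 2287 and 2349 normalised counts in histidine restricted libraries, against 6467, 4781, 4748, 4734 and 6232 in histidine controls. Methionine restricted libraries had 1192, 1575, 1095, 1410 and 1609, against 3278, 4192, 3904, 3701 and 4354 in methionine controls. The responses of -1.33 ± 0.10 in histidine and -1.51 ± 0.11 in methionine restriction differed by 0.18 ± 0.16 (95% interval -0.16 to 0.52). MYC, the growth-promoting transcription factor, also fell in both, to 0.642 of the control level in histidine and 0.52 in methionine restriction, with a difference of 0.30 ± 0.17 (adjusted p = 0.173), which was called without methionine control 3 (0.42, adjusted p = 0.0332). BHLHE40, a clock and stress repressor, and GRIK4, a glutamate receptor subunit, fell in both, with responses of -1.50 ± 0.17 in histidine and -1.93 ± 0.15 in methionine restriction for BHLHE40 and -2.37 ± 0.22 in histidine and -2.72 ± 0.34 in methionine restriction for GRIK4. The difference of BHLHE40 was not called (0.43 ± 0.24) except without library 1 of histidine restriction (0.58, adjusted p = 0.0489).

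Sterol genes fell in both restrictions, and most fell further in methionine restriction. These enzymes build cholesterol from acetyl-CoA and are switched on by SREBP-2, the product of SREBF2, when sterols are scarce. Of 25 measured genes of cholesterol synthesis and sterol sensing, 23 fell and 1 rose in histidine restriction, 23 fell and 2 rose in methionine restriction, and the difference was above 0 for 16 and below 0 for none. The median response was -1.49 log2 units in histidine and -2.16 in methionine restriction, beside 0.02 and 0.01 over all genes. INSIG1, which retains the SREBP complex in the endoplasmic reticulum (chr7:155297878-155310235), had 3671, 3820, 3901, 4696 and 4755 normalised counts in histidine restricted libraries and 11410, 14870, 14320, 15970 and 15250 in histidine controls. It had 1378, 1761, 1648, 1610 and 1822 in methionine restricted libraries and 13940, 13990, 14760, 12410 and 12990 in methionine controls. Both restricted groups lay below all of their controls. The responses of -1.78 ± 0.10 in histidine and -3.05 ± 0.08 in methionine restriction differed by 1.27 ± 0.13 log2 units (adjusted p = 2.1e-07).

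SREBF2 itself showed the same order, with responses of -0.56 ± 0.11 in histidine and -2.41 ± 0.08 in methionine restriction (difference 1.86 ± 0.14, adjusted p = 1.02e-09). HMGCS1, an early enzyme of the pathway, fell in both, at -2.38 ± 0.16 in histidine and -3.31 ± 0.08 in methionine restriction, and its difference was called (adjusted p = 0.000528). Not all enzymes separated: EBP, a late-step isomerase, fell to 533, 623, 676, 691 and 716 normalised counts in histidine restricted libraries, against 1685, 1902, 1944, 1820 and 2173 in histidine controls. It had 609, 585, 545, 536 and 631 in methionine restricted libraries, against 2004, 1802, 2365, 1538 and 1778 in methionine controls. Its responses of -1.56 ± 0.09 in histidine and -1.69 ± 0.10 in methionine restriction differed by 0.14 ± 0.14, with a 95% interval of -0.16 to 0.43 that lies within 0.5 log2 units of 0. MSMO1 and CYP51A1, which remove methyl groups from lanosterol, fell more than 4-fold in both restrictions, and their differences of 0.44 ± 0.22 and 0.54 ± 0.22 were not called, at adjusted p of 0.123 and 0.0573. Without library 1 of histidine restriction both were called, at 0.62 (adjusted p = 0.00639) for MSMO1 and 0.64 (adjusted p = 0.0236) for CYP51A1, and CYP51A1 was also called without histidine control 3 (0.64, adjusted p = 0.0225) or library 5 of methionine restriction (0.66, adjusted p = 0.0155).

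Fatty acid genes divided in the same way. Of 16 measured, 12 fell and none rose in histidine restriction, 13 fell and 2 rose in methionine restriction, and the difference was above 0 for 9 and below 0 for 2. SCD, the desaturase that makes oleate, averaged 17500 ± 2221 normalised counts in histidine restricted libraries and 56550 ± 6525 in histidine controls, and 5509 ± 259.6 in methionine restricted libraries and 50570 ± 2315 in methionine controls (SD, n = 5 each). The desaturases FADS1 and FADS2, which act on polyunsaturated fatty acids, fell in both, with responses of -1.10 ± 0.09 in histidine and -2.87 ± 0.07 in methionine restriction for FADS1 and -1.80 ± 0.11 in histidine and -3.68 ± 0.10 in methionine restriction for FADS2. NPC2, which passes cholesterol out of the lysosome, fell as well, at -0.98 ± 0.11 in histidine and -2.21 ± 0.10 in methionine restriction, and its partner NPC1 fell in methionine restriction at -0.33 ± 0.08 and was not called in histidine restriction at 0.26 ± 0.09 (adjusted p = 0.0504), and at equal totals it was called higher in histidine restriction (adjusted p = 0.021) and not called in methionine restriction (adjusted p = 0.0598). Its histidine rise was also called without histidine control 3 (0.31, adjusted p = 0.0243) or 2 (0.30, adjusted p = 0.0356). Of 24 glycolysis genes, 21 fell in histidine and 22 fell and 1 rose in methionine restriction, with medians of -0.61 and -1.29 and a difference above 0 for 17 and below 0 for 1. PDK1, which holds pyruvate back from the mitochondria, fell in both, at -0.96 ± 0.08 in histidine and -2.22 ± 0.09 in methionine restriction, and so did the neuronal-type enolase ENO2, at -0.33 ± 0.09 in histidine and -1.84 ± 0.06 in methionine restriction. Of 17 other hypoxia-responsive genes, 10 fell in histidine and 13 in methionine restriction and none rose, and the difference was above 0 for 8 and below 0 for 1. P4HA1, a collagen prolyl hydroxylase, fell in both, at -0.66 ± 0.15 in histidine and -1.57 ± 0.12 in methionine restriction, and HILPDA, a lipid droplet protein, fell in methionine restriction at -1.75 ± 0.14 and was not called in histidine restriction at -0.08 ± 0.10.

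**Figure D2:**
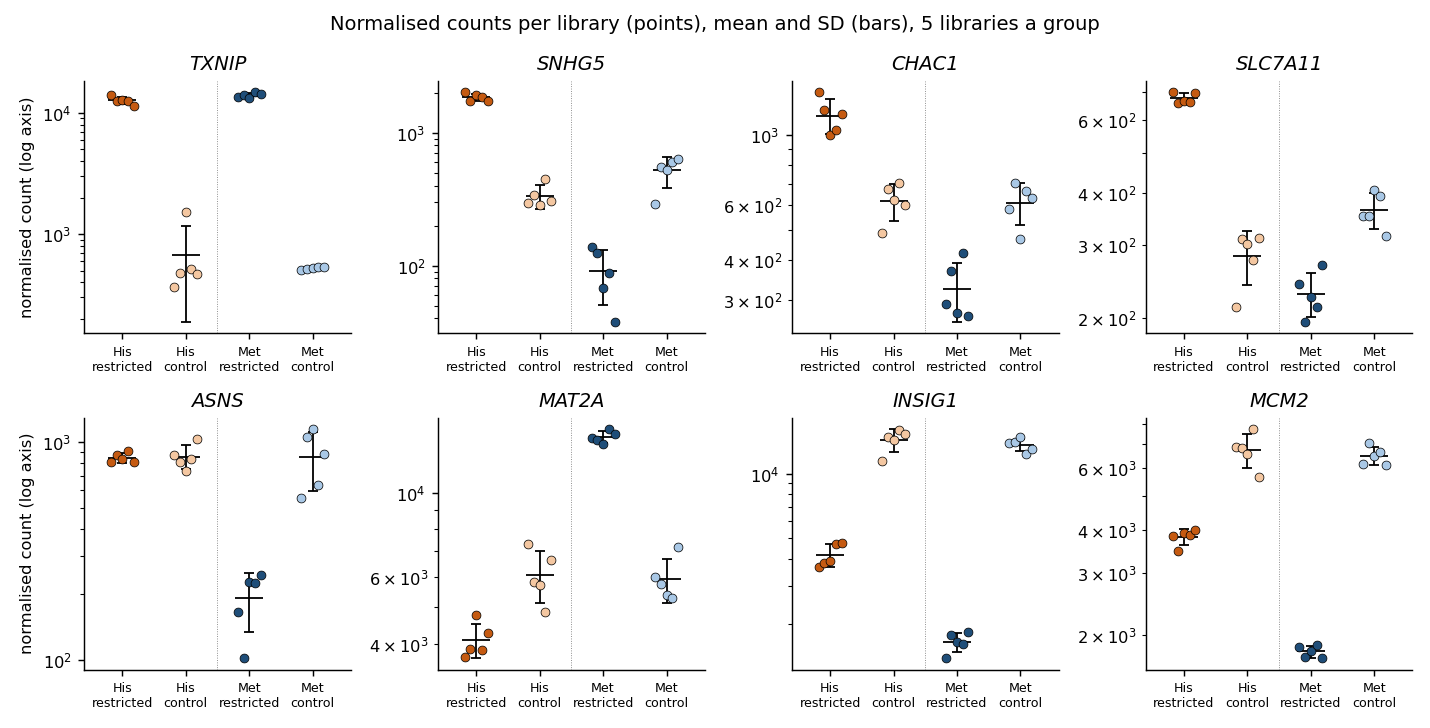
The plot of normalised counts by library shows 8 genes on log axes, with a point for each of the 5 libraries of a group, a horizontal bar for the mean and error bars for the SD. TXNIP is high in both restricted groups, SNHG5, CHAC1 and SLC7A11 are high in histidine and low in methionine restriction, MAT2A is the reverse, ASNS is low in methionine restriction, and INSIG1 and MCM2 are low in both restricted groups, with the larger fall in methionine restriction.

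Targets of ATF4 separated the restrictions, several of them with opposite signs. Of 23 measured ATF4 regulators and stress targets, 15 rose and 4 fell in histidine restriction, whereas 8 rose and 9 fell in methionine restriction, and the difference was above 0 for 12 and below 0 for 8. The median response was 0.42 in histidine and -0.09 in methionine restriction, and the methionine median became 0.04 when libraries were scaled to equal totals. CHAC1, an enzyme that degrades glutathione (chr15:40953471-40956512), had 1362, 1201, 997, 1036 and 1160 normalised counts in histidine restricted libraries and 489, 674, 619.5, 702 and 599 in histidine controls. It had 292, 371, 272, 422 and 266 in methionine restricted libraries and 582, 703, 467, 666 and 630.5 in methionine controls. The histidine restricted libraries were all above and the methionine restricted libraries all below their controls, with responses of 0.90 ± 0.11 in histidine and -0.92 ± 0.15 in methionine restriction and a difference of 1.82 ± 0.19 (adjusted p = 2.02e-07). SLC7A11, the cystine importer (chr4:138164097-138242349), had 700, 659, 667, 663 and 698 in histidine restricted libraries and 212, 311, 302, 276 and 313 in histidine controls. It had 242, 196, 226, 212 and 269 in methionine restricted libraries and 353, 352, 407, 395 and 316 in methionine controls, and again neither pair of groups overlapped. Its difference was 1.94 ± 0.15 (adjusted p = 3.52e-09).

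Among the 23 members, 7 were opposed. ATF3, a stress-induced transcription factor, STC2, a secreted glycoprotein of the stress response, and the transporters SLC1A5 and SLC7A1 rose in histidine and fell in methionine restriction like CHAC1 and SLC7A11. ATF3 had responses of 0.47 ± 0.12 in histidine and -1.32 ± 0.17 in methionine restriction and STC2 of 0.89 ± 0.09 in histidine and -0.73 ± 0.07 in methionine restriction. SLC1A5, the glutamine transporter, had 0.39 ± 0.09 in histidine and -1.13 ± 0.07 in methionine restriction, and SLC7A1, the arginine and lysine transporter, had 0.35 ± 0.11 in histidine and -0.42 ± 0.09 in methionine restriction. The histidine rise of SLC7A1 lost its call without library 1 (adjusted p = 0.0817), 3 (adjusted p = 0.056) or 5 (adjusted p = 0.053) of histidine restriction. The seventh was the mRNA of ATF4 itself, in the other direction. ATF4 mRNA had 10480, 9451, 9756, 10830 and 9589 normalised counts in histidine restricted libraries, against 11840, 12860, 11990, 13490 and 14110 in histidine controls. It had 16840, 16320, 14760, 18130 and 17110 in methionine restricted libraries, against 12260, 13330, 13840, 11800 and 14200 in methionine controls. The groups did not overlap in either table, and the difference was -0.70 ± 0.10 (adjusted p = 1.15e-05). ATF4 is controlled mainly through its translation, and its protein was not measured here.

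Another group of ATF4 targets rose in both restrictions and further in methionine restriction. TRIB3, a pseudokinase that feeds back on ATF4, had 7748, 6767, 6916, 6415 and 6062 normalised counts in histidine restricted libraries, against 3680, 3274, 3168, 3518 and 2707 in histidine controls. Methionine restricted libraries had 14660, 15140, 13880, 16190 and 16250, against 3334, 3412, 3471, 3218 and 2992 in methionine controls. All restricted libraries lay above all controls, and the responses of 1.05 ± 0.09 in histidine and 2.21 ± 0.07 in methionine restriction differed by -1.16 ± 0.11 (adjusted p = 5.71e-08). DDIT3, the pro-apoptotic factor CHOP, rose by 0.33 ± 0.11 in histidine restriction (adjusted p = 0.0432) and by 1.36 ± 0.10 in methionine restriction (adjusted p = 1.18e-07). Its histidine rise lost its call when any 1 of 8 libraries was left out (replicates 1, 2, 4 and 5 of histidine restriction and 1 to 4 of the histidine controls), at adjusted p of 0.054 to 0.106. Without histidine control 3 that response was 0.32 ± 0.12 (adjusted p = 0.0709). CEBPB and CEBPG, which pair with ATF4 on DNA, rose by 0.77 ± 0.09 and 0.84 ± 0.08 in histidine and by 1.07 ± 0.07 and 1.20 ± 0.08 in methionine restriction. The difference of CEBPB (-0.30 ± 0.11, adjusted p = 0.0462) lost its call in 13 of the 20 fits that leave out 1 library, at adjusted p of 0.0548 to 0.0906. Among them was the fit without histidine control 3, where it was -0.22 ± 0.10 (adjusted p = 0.0889). PPP1R15A, which guides the phosphatase that restores eIF2, and ATF5 were called higher in methionine restriction alone, at 1.34 ± 0.08 and 0.68 ± 0.07, with responses of 0.12 ± 0.08 and 0.18 ± 0.07 in histidine restriction. The histidine response of ATF5 was called when libraries were scaled to equal totals (adjusted p = 0.0177), and without library 2 of histidine restriction (adjusted p = 0.0486) or histidine control 4 (adjusted p = 0.0349). SESN2, an inhibitor of mTORC1, was called in histidine restriction alone, at 0.82 ± 0.15, against -0.17 ± 0.07 in methionine restriction. Its methionine fall was called without methionine control 3 (-0.21, adjusted p = 0.026) and over genes with a mean of at least 100 (adjusted p = 0.0497).

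**Figure D3:**
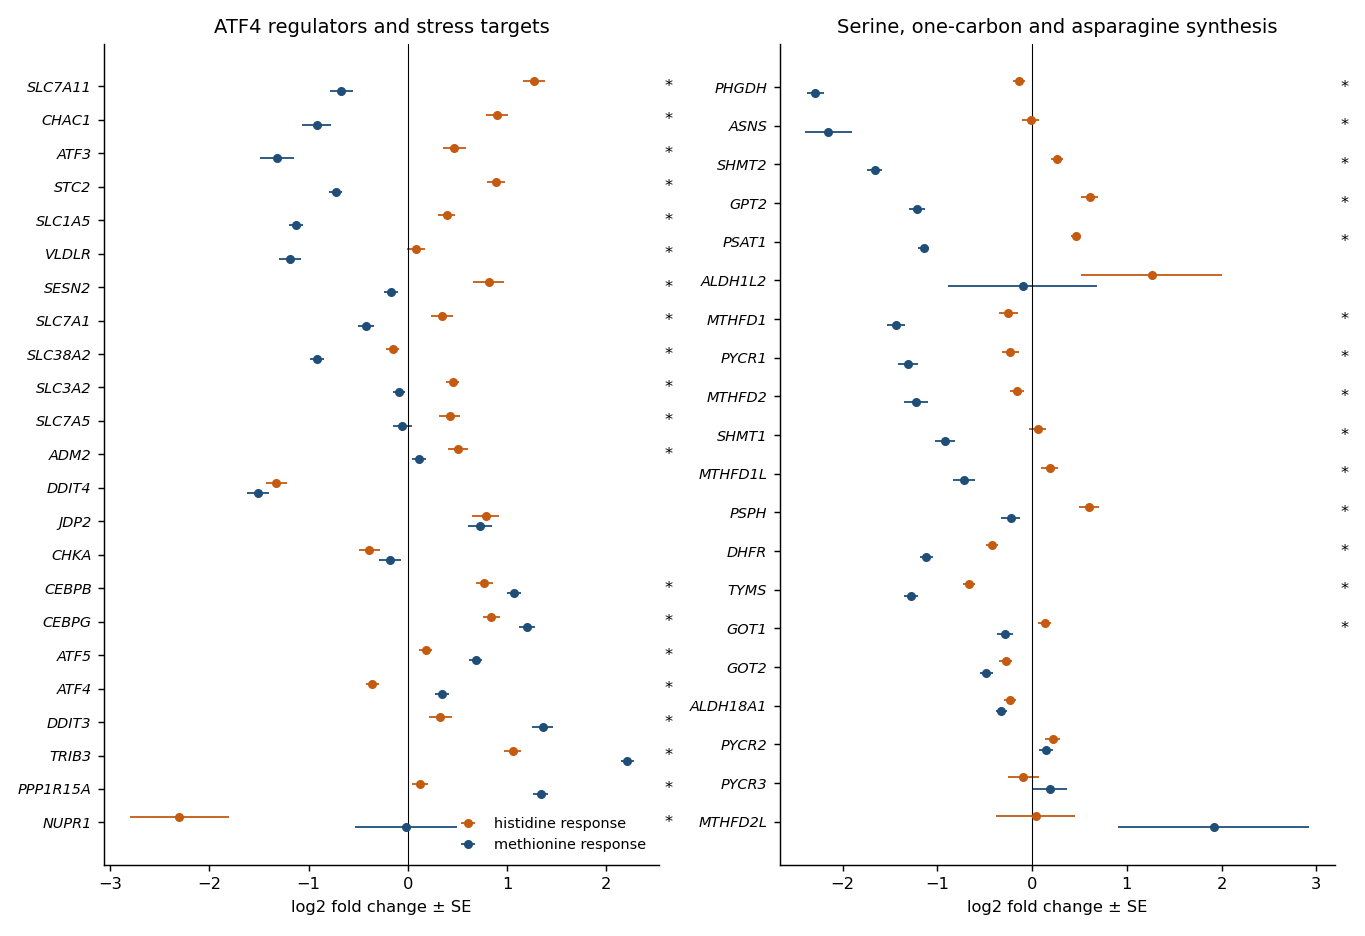
The plot of single members shows log2 fold changes with their SE for the ATF4 list and for the serine, one-carbon and asparagine list, histidine above methionine for each gene. Asterisks mark genes whose difference was called, and the lists are ordered by the difference, so SLC7A11 and PHGDH stand at the top.

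Genes of serine, one-carbon and asparagine synthesis fell in methionine restriction, while as many rose as fell in histidine restriction. Of 20 measured genes, 4 rose and 4 fell in histidine restriction and 15 fell in methionine restriction, the median response was 0.01 and -1.02, and the difference was above 0 for 14 and below 0 for none. PHGDH, the entry enzyme of serine synthesis, had 8570, 7300, 8288, 8242 and 7426 normalised counts in histidine restricted libraries, against 9123, 8702, 8283, 9201 and 8383 in histidine controls. It had 1628, 1635, 1611, 1955 and 1911 in methionine restricted libraries, against 7365, 8858, 10050, 8235 and 8334 in methionine controls. The histidine groups overlapped and the methionine groups lay far apart, and the difference was 2.15 ± 0.11 (adjusted p = 6.29e-12). ASNS, the asparagine synthetase and a classical ATF4 target (chr7:97851677-97928441), had 808, 866, 830.2, 905 and 806 normalised counts in histidine restricted libraries, against 871, 808, 737, 838 and 1026 in histidine controls. It had 167, 102, 227, 224 and 244 in methionine restricted libraries, against 553, 1057, 1143, 636 and 876 in methionine controls. It was not called in histidine restriction (-0.01 ± 0.09) and fell, at -2.15 ± 0.25, in methionine restriction (difference 2.14 ± 0.28, adjusted p = 4.53e-06). PSAT1, SHMT2 and GPT2 rose in histidine and fell in methionine restriction. PSAT1, the next enzyme after PHGDH, had responses of 0.46 ± 0.06 in histidine and -1.15 ± 0.06 in methionine restriction, and SHMT2, the mitochondrial enzyme that takes the one-carbon unit from serine, had 0.27 ± 0.06 in histidine and -1.66 ± 0.08 in methionine restriction. GPT2, an alanine aminotransferase, had 0.61 ± 0.09 in histidine and -1.21 ± 0.08 in methionine restriction. PSPH, the last enzyme of serine synthesis, was called in histidine restriction alone at 0.60 ± 0.11, against -0.23 ± 0.10 in methionine restriction. Its methionine fall was called without methionine control 1 (-0.28, adjusted p = 0.0324) and with library weights (adjusted p = 0.0463).

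Amino acid transporters of the plasma membrane moved like the opposed ATF4 targets. The lists share members, among them SLC3A2 and SLC7A1, so they are not separate sets. Of 18 measured, 8 rose and 1 fell in histidine restriction, 2 rose and 11 fell in methionine restriction, and the difference was above 0 for 11 and below 0 for 2. SLC43A1, which carries large neutral amino acids, had 1341, 1304, 1322, 1276 and 1237 normalised counts in histidine restricted libraries and 656, 665, 597, 669 and 607 in histidine controls. It had 419.6, 406, 402, 407 and 431 in methionine restricted libraries and 733, 653, 612, 672 and 638 in methionine controls. No library of a restricted group overlapped its control, and the difference was 1.70 ± 0.09 (adjusted p = 1.09e-11). SLC7A5 and SLC3A2, the pair that forms the main exchanger of large neutral amino acids and carries both histidine and methionine, rose by 0.42 ± 0.11 and 0.45 ± 0.06 in histidine restriction, and were not called in methionine restriction at -0.05 ± 0.09 and -0.09 ± 0.06. Both differences were called, at adjusted p of 0.0174 and 3.6e-05.

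Of 22 cytosolic aminoacyl-tRNA synthetase genes, which charge transfer RNAs, 10 rose and 3 fell in histidine restriction and 9 rose and 9 fell in methionine restriction, with a difference above 0 for 9 and below 0 for 2. MARS1, the methionine enzyme, rose by 0.87 ± 0.07 in histidine restriction and by 0.21 ± 0.06 in methionine restriction. It had 10300, 8758, 9265, 9289 and 8875 normalised counts in histidine restricted libraries, against 5007, 5277, 5014, 5690 and 4415 in histidine controls. Methionine restricted libraries had 6093, 6528, 5625, 6537 and 6209, against 5612, 5226, 5486, 5146 and 5370 in methionine controls, so that the rise was larger in the restriction of the other amino acid (difference 0.67 ± 0.09, adjusted p = 8.42e-06). HARS1, the histidine enzyme, was not called in histidine restriction (-0.04 ± 0.07) and rose by 0.30 ± 0.08 in methionine restriction. QARS1, the glutamine enzyme, fell in both, at -1.21 ± 0.07 in histidine and -2.47 ± 0.09 in methionine restriction, and CARS1, the cysteine enzyme, was opposed, at 0.35 ± 0.06 in histidine and -0.35 ± 0.06 in methionine restriction.

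To show what these promoters share, the members of the ATF4, serine, synthetase and transporter lists were searched for TGATGNAA, the core of the element that ATF4 and C/EBP factors are known to bind, on both strands of the 300-base RefSeq window. It was present in 184 of 11186 windows of tested genes (1.64%), in 4 of 20 windows of the ATF4 list, 3 of 12 of the serine list, 6 of 18 of the synthetases and 3 of 16 of the transporters, which share SLC3A2 and SLC7A1 with the ATF4 list. The 14 genes are printed with the match in capitals and up to 11 bases on each side, 5′ to 3′ in the direction of the gene, GRCh38.p14. Matches on the opposite strand appear as the reverse complement.
CHAC1 (chr15:40953251-40953280, plus strand): ctcccctgccgTTGCATCActcctgccagg
ATF3 (chr1:212565205-212565234, plus strand): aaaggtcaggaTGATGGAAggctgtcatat
SLC3A2 (chr11:62881725-62881748, plus strand): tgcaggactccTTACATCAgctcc
SLC7A1 (chr13:29595663-29595692, minus strand): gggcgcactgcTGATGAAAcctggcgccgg
MTHFD1L (chr6:150866346-150866375, plus strand): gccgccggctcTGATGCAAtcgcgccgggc
ASNS (chr7:97872458-97872487, minus strand): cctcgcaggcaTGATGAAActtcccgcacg
GOT1 (chr10:99430804-99430833, minus strand): aattgcattggTTGCATCAttctcggcagc
AARS1 (chr16:70289675-70289704, minus strand): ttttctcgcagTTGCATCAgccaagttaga
CARS1 (chr11:3057407-3057436, minus strand): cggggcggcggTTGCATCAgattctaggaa
IARS1 (chr9:92293692-92293721, minus strand): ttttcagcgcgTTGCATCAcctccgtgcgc
MARS1 (chr12:57488053-57488082, plus strand): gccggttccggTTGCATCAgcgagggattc
NARS1 (chr18:57621804-57621833, minus strand): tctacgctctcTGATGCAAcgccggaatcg
TARS1 (chr5:33440956-33440985, plus strand): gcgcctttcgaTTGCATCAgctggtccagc
SLC38A1 (chr12:46266502-46266531, minus strand): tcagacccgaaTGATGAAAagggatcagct
These matches stood in genes with unlike responses. CHAC1, ATF3, SLC7A1, CARS1 and SLC38A1 were opposed, ASNS, MTHFD1L and GOT1 fell in methionine restriction alone, SLC3A2, NARS1 and TARS1 rose in histidine restriction alone, and AARS1, IARS1 and MARS1 rose in both. The differences of TARS1 (adjusted p = 0.0214, and 0.0545 when scaled to equal totals) and AARS1 (adjusted p = 0.1, and 0.0321 without histidine control 4) changed side of the threshold, and the methionine fall of GOT1 lost its call at equal totals (adjusted p = 0.116), where its histidine rise was called (adjusted p = 0.0485). The histidine rise of SLC38A1 lost its call without library 1 of histidine restriction (adjusted p = 0.0552), that of SLC7A1 in 3 fits as given above, and MTHFD1L was called higher in histidine restriction with library weights (adjusted p = 0.0427). By outcome over all tested genes, the pattern was present in 8 of 224 windows of genes that rose in histidine and fell in methionine restriction (3.57%), 10 of 290 that rose in histidine restriction alone (3.45%), 20 of 933 that rose in both with no called difference (2.14%) and 17 of 1224 that rose in methionine restriction alone (1.39%). These shares are descriptions with no test, and the windows of CHAC1 and ASNS are given in full to the base before the start, because their mRNAs moved differently under the same pattern. The start used for a window can lie inside the full span of a gene, as for ASNS, whose span is given above, and SLC3A2.
CHAC1 (chr15:40953221-40953470, plus strand): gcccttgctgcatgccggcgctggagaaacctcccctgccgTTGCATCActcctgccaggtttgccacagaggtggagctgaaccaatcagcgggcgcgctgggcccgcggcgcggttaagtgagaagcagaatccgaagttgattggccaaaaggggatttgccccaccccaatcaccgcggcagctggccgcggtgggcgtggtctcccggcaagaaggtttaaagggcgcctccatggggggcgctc
ASNS (chr7:97872409-97872658, minus strand): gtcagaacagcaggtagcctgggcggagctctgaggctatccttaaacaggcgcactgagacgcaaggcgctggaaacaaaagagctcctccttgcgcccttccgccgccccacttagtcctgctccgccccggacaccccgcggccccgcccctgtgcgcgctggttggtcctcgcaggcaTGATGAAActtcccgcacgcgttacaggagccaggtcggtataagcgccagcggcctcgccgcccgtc

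Genes of the methionine cycle moved both ways, and 3 of the 28 measured were opposed. MAT2A, which makes S-adenosylmethionine (chr2:85539168-85545281), had 3700, 3867, 4758, 3856 and 4265 normalised counts in histidine restricted libraries and 7312, 5812, 5709, 4845 and 6662 in histidine controls. It had 13940, 13760, 13420, 14700 and 14260 in methionine restricted libraries and 5979, 5734, 5369, 5263 and 7209 in methionine controls. The histidine restricted libraries all lay below and the methionine restricted libraries all above their controls, and the difference was -1.81 ± 0.14 (adjusted p = 1.63e-09). METTL16, the RNA methyltransferase known to raise MAT2A mRNA when S-adenosylmethionine is low, rose in both, by 0.81 ± 0.08 in histidine and 1.77 ± 0.10 in methionine restriction (difference -0.95 ± 0.13, adjusted p = 4.82e-06). MTR, which regenerates methionine from homocysteine, was opposed in the other direction, at 0.42 ± 0.10 in histidine and -0.47 ± 0.10 in methionine restriction, although its restricted and control libraries overlapped in both tables. CBS, which diverts homocysteine towards cysteine, was not called in histidine restriction (-0.12 ± 0.08) and fell, at -1.93 ± 0.07, in methionine restriction. Of the 28 measured genes of the cycle, transsulfuration and polyamine synthesis, 5 rose and 7 fell in histidine restriction, 10 rose and 10 fell in methionine restriction, and the difference was above 0 for 8 and below 0 for 7.

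Genes that use or modify histidine were called more often in methionine restriction. Of 22 measured, 5 rose and 2 fell in histidine restriction and 13 rose and 5 fell in methionine restriction, beside 29.0% and 53.8% called among all genes, and the difference was above 0 for 4 and below 0 for 5. SLC15A4, a lysosomal histidine transporter, was not called in histidine restriction (-0.07 ± 0.09) and rose by 0.42 ± 0.08 in methionine restriction. EEF2, the elongation factor that carries the modified histidine diphthamide, was not called in histidine restriction (-0.13 ± 0.12) and fell, at -1.31 ± 0.10, in methionine restriction.

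Among the 438 opposed genes, SNHG5, a non-coding host gene of small nucleolar RNAs (chr6:85677007-85678733), had the largest difference of those named here. SNHG5 had 2003, 1730, 1915, 1856 and 1743 normalised counts in histidine restricted libraries and 295, 341, 285, 451 and 306 in histidine controls. It had 138, 124, 68, 87.6 and 37.9 in methionine restricted libraries and 291, 549, 526, 606 and 638 in methionine controls. Neither pair of groups overlapped, the responses were 2.48 ± 0.11 in histidine and -2.59 ± 0.31 in methionine restriction, and they differed by 5.07 ± 0.36 log2 units (adjusted p = 6.31e-10). HOXB9, a homeobox transcription factor, CALB2, the calcium-binding calretinin, and SPNS3, of a family of lipid transporters, moved the same way, with responses of 1.24 ± 0.14 in histidine and -1.38 ± 0.15 in methionine restriction for HOXB9, 1.39 ± 0.14 in histidine and -1.07 ± 0.17 in methionine restriction for CALB2 and 1.48 ± 0.15 in histidine and -0.81 ± 0.12 in methionine restriction for SPNS3. On the reverse side PTPN14, a tyrosine phosphatase, CTC1, a telomere maintenance protein, MME, the surface peptidase CD10, VSIR, the checkpoint protein VISTA, and SEC62, part of the protein translocation channel, fell in histidine and rose in methionine restriction. Their differences ran from -1.33 for SEC62 to -2.40 for PTPN14.

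Host genes of small nucleolar RNAs rose more often than they fell in histidine restriction. Their spliced transcripts are known to be degraded while they are translated. Of 22 measured, 10 rose and 2 fell in histidine restriction, 4 rose and 7 fell in methionine restriction, and the difference was above 0 for 11 and below 0 for none, with a median difference of 1.09. SNHG12 had 1084, 937, 1056, 1004 and 890.1 normalised counts in histidine restricted libraries, against 60.2, 50.2, 50.1, 49.5 and 70.2 in histidine controls. It had 169, 187, 98.2, 234 and 216 in methionine restricted libraries, against 79.3, 52.5, 63, 53.8 and 45.8 in methionine controls. It rose 17.6-fold in histidine and 2.96-fold in methionine restriction, one of the 78 genes with a larger histidine change (difference 2.57 ± 0.27, adjusted p = 2.13e-07). SNHG12 overlaps the end of the neighbouring gene TRNAU1AP, and no source used here states whether reads were counted by strand, so some of its reads are uncertain. SNHG29 rose by 1.23 ± 0.09 in histidine restriction and was not called in methionine restriction (-0.07 ± 0.09).

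Ribosomal protein mRNAs and other TOP mRNAs, whose translation mTORC1 controls, fell mainly in methionine restriction. Of 79 cytosolic ribosomal protein genes, 2 rose and 31 fell in histidine restriction, and 78 fell in methionine restriction, with median responses of -0.16 and -1.27 and a difference above 0 for 76 and below 0 for none. RPL3 fell to 26960, 25130, 27200, 30850 and 29010 normalised counts in histidine restricted libraries, against 43160, 48910, 47930, 48710 and 50220 in histidine controls. Methionine restricted libraries had 8152, 9627, 8249, 9740 and 8536, against 48940, 57010, 56850, 51730 and 59830 in methionine controls. Each restricted group lay below its controls, and the difference was 1.85 ± 0.11 (adjusted p = 4.3e-11). Ribosomal protein genes have many near-identical pseudogenes, so how reads were divided among copies is uncertain. Of 20 translation factors with TOP mRNAs, 1 rose and 9 fell in histidine restriction and 18 fell in methionine restriction, and the difference was above 0 for 18. EIF3E, a subunit of the initiation factor eIF3, fell in both, at -0.34 ± 0.08 in histidine and -2.37 ± 0.08 in methionine restriction. EEF1B2, an exchange factor of elongation, and NAP1L1, a histone chaperone with a TOP mRNA, fell in methionine restriction, at -1.85 ± 0.11 and -2.17 ± 0.11, and were not called in histidine restriction, at 0.07 ± 0.08 and -0.09 ± 0.09.

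Factors that assemble ribosomes moved in the other direction in methionine restriction. Of 32 measured, 4 rose and 4 fell in histidine restriction, 22 rose and 2 fell in methionine restriction, and the difference was above 0 for 2 and below 0 for 16. RRN3, the initiation factor of RNA polymerase I, had 1341, 1268, 1262, 1262 and 1319 normalised counts in histidine restricted libraries, against 1179, 1347, 1232, 1316 and 1307 in histidine controls. It had 3212, 2843, 3218, 3310 and 3788 in methionine restricted libraries, against 1155, 1296, 1330, 1135 and 1425 in methionine controls. The histidine groups overlapped, the methionine restricted libraries lay above every control, and the difference was -1.35 ± 0.10 (adjusted p = 2.16e-09). PPAN and NOP2, both of the large subunit pathway, were called in methionine restriction alone, at 1.06 ± 0.09 and 1.03 ± 0.09, and histidine responses were -0.03 ± 0.08 and 0.18 ± 0.07. The histidine value of NOP2 was called when libraries were scaled to equal totals (adjusted p = 0.015) and without histidine control 2 (adjusted p = 0.0472).

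Genes of DNA replication and mitosis fell in methionine restriction, and far fewer of them fell in histidine restriction. Of 38 replication genes, 5 rose and 10 fell in histidine restriction, and 1 rose and 37 fell in methionine restriction, and the difference was above 0 for 35 and below 0 for none. The median response was -0.07 in histidine restriction, and 0.01 when scaled by a trimmed mean of ratios, and -1.16 in methionine restriction. In bulk RNA, fewer cells in S phase and less RNA per cell cannot be told apart. MCM2, a subunit of the replicative helicase, had 3823, 3478, 3912, 3857 and 3985 normalised counts in histidine restricted libraries, against 6861, 6810, 6575, 7728 and 5642 in histidine controls. It had 1851, 1735, 1802, 1880 and 1719 in methionine restricted libraries, against 6168, 7056, 6479, 6632 and 6115 in methionine controls. It fell in both, at -0.81 ± 0.08 in histidine and -1.85 ± 0.06 in methionine restriction, while MCM6 of the same helicase fell in methionine restriction, at -1.43 ± 0.07, and was not called in histidine restriction, at 0.03 ± 0.06. CDC45, which activates that helicase, was opposed, at 0.35 ± 0.08 in histidine and -1.86 ± 0.11 in methionine restriction. Of 31 G2 and mitosis genes, 4 rose and 14 fell in histidine restriction, and 1 rose and 29 fell in methionine restriction, with a difference above 0 for 26. TPX2, a spindle assembly factor, was opposed, at 0.26 ± 0.07 in histidine and -0.67 ± 0.06 in methionine restriction. CCNA2, cyclin A2, fell in methionine restriction, at -1.40 ± 0.08, and was not called in histidine restriction, at -0.06 ± 0.08, and likewise MKI67, the proliferation marker Ki-67, at -0.71 ± 0.08 in methionine and 0.23 ± 0.11 in histidine restriction. Of 25 genes of nucleotide synthesis, 2 rose and 9 fell in histidine restriction, 5 rose and 16 fell in methionine restriction, and the difference was above 0 for 11 and below 0 for none. RRM1, a subunit of the enzyme that makes deoxynucleotides, fell in both, at -0.35 ± 0.06 in histidine and -1.74 ± 0.08 in methionine restriction, and so did IMPDH2, the entry enzyme of guanine nucleotide synthesis, at -1.04 ± 0.07 in histidine and -2.18 ± 0.09 in methionine restriction.

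Most cytosolic chaperones fell in both restrictions, and the differences ran both ways. Of 23 measured heat-shock genes, 2 rose and 17 fell in histidine restriction, 6 rose and 13 fell in methionine restriction, and the difference was above 0 for 3 and below 0 for 8. HSPA6, a strictly inducible HSP70 (chr1:161524540-161526894), had 19, 84.2, 57.6, 142 and 152 normalised counts in histidine restricted libraries, against 2829, 2370, 2378, 2466 and 3014 in histidine controls. Methionine restricted libraries had 10.2, 12.7, 15.6, 6.9 and 5.79, against 1407, 1462, 1285, 1447 and 1713 in methionine controls. No restricted library overlapped the controls of its table, and the difference was 1.96 ± 0.52 (adjusted p = 0.00526). HSPA1A fell in both, at -5.28 ± 0.54 in histidine and -6.89 ± 0.62 in methionine restriction, and these values depend on the pseudocount, since library 5 of methionine restriction was at 0. It had 3495 normalised counts in histidine control 3 against 324 to 787 in the other histidine controls. The difference was 1.61 ± 0.92 (adjusted p = 0.184) and 2.15 ± 0.84 without that library (adjusted p = 0.053), and it has a near-identical copy in HSPA1B, so its counts are uncertain. DNAJA1, a co-chaperone of HSP70, and CHORDC1, a co-chaperone of HSP90, were opposed. DNAJA1 had 2559, 2280, 2220, 2510 and 2447 normalised counts in histidine restricted libraries, against 4174, 3890, 3659, 4231 and 4188 in histidine controls. It had 4516, 4087, 4091, 4928 and 4921 in methionine restricted libraries, against 3329, 3885, 3731, 3309 and 3795 in methionine controls. Its difference was -1.06 ± 0.10 (adjusted p = 3.86e-08), and that of CHORDC1 was -0.97 ± 0.15 (adjusted p = 4.47e-05).

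The pattern of 3 heat-shock element units bound by HSF1, GAA, TTC and GAA with 2 bases of any kind between them, was searched on both strands. It was present in 34 of 11186 promoter windows (0.304%) and in 5 of 21 windows of the heat-shock list. The matches are printed with 8 bases on each side, capitals marking the match, because they stand in genes with unlike responses. CHORDC1 holds 3 overlapping matches and HSPA8 holds 2, and the first is shown for each.
HSPA6 (chr1:161524458-161524486, plus strand): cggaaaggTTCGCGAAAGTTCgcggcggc
HSPA8 (chr11:123062346-123062374, minus strand): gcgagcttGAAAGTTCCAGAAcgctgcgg
DNAJA1 (chr9:33025268-33025296, plus strand): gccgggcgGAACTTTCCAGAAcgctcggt
DNAJB6 (chr7:157336865-157336893, plus strand): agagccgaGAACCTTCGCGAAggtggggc
CHORDC1 (chr11:90223089-90223117, minus strand): cgcgaccgGAAAATTCGCGAAggttcctg
HSPA6 and HSPA8 fell in both restrictions, HSPA8 at -1.35 ± 0.06 in histidine and -1.04 ± 0.09 in methionine restriction with a difference of -0.31 ± 0.11 that lost its call in 8 of the 20 fits that leave out 1 library, at adjusted p of 0.0517 to 0.068. DNAJA1 and CHORDC1 were opposed, and DNAJB6 was called in methionine restriction alone, at 0.29 ± 0.07.

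Of the 8 subunits of the chaperonin TRiC, which folds actin and tubulin, 5 fell in histidine restriction and 1 rose and 5 fell in methionine restriction. The difference was above 0 for 1, CCT2, and below 0 for 2, CCT7 and CCT6A, beside 18.6% and 15.8% of all tested genes. A further 3 moved the same way in both with no called difference. CCT7 fell in histidine restriction, at -0.63 ± 0.06, and was not called in methionine restriction, at 0.10 ± 0.09. CCT6A was opposed, at -0.24 ± 0.06 in histidine and 0.26 ± 0.07 in methionine restriction, with a histidine fall that lost its call (adjusted p = 0.11) when scaled by a trimmed mean of ratios. CCT2 fell in methionine restriction, at -0.34 ± 0.09, and was not called in histidine restriction, at 0.02 ± 0.07. In the endoplasmic reticulum, 6 of 25 genes rose and 10 fell in histidine restriction and 10 rose and 7 fell in methionine restriction, and the difference was below 0 for 8 and above 0 for 2. ERN1, the sensor IRE1, was not called in histidine restriction (0.11 ± 0.10) and rose by 1.69 ± 0.12 in methionine restriction. SEL1L, of the degradation machinery, rose in both, at 0.45 ± 0.06 in histidine and 1.30 ± 0.08 in methionine restriction, whereas SDF2L1, a chaperone cofactor, fell in histidine restriction, at -0.87 ± 0.09, and was not called in methionine restriction (-0.06 ± 0.09).

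Mitochondrial transcripts were examined by the genome that encodes them. Of 13 mRNAs encoded in mitochondria none was called in histidine restriction, 8 rose in methionine restriction and the difference was below 0 for 3. MT-ND2 had 17390, 11540, 14960, 16120 and 14510 normalised counts in histidine restricted libraries, against 18850, 18810, 9859, 8048 and 23180 in histidine controls. It had 37640, 22830, 20470, 34490 and 21220 in methionine restricted libraries, against 7057, 9921, 5964, 7619 and 14960 in methionine controls. The histidine controls themselves ranged more than 2-fold, the methionine groups did not overlap, and the difference was -1.59 ± 0.37 (adjusted p = 0.002). Of 46 nuclear-encoded subunits of the respiratory chain, 4 rose and 15 fell in histidine and 5 rose and 25 fell in methionine restriction. The difference was above 0 for 15 and below 0 for 5. Their median methionine response was -0.31, and -0.18 at equal totals, where 8 rose and 19 fell. COX4I1 and UQCRC1, subunits of complexes IV and III, were not called in histidine restriction (0.09 ± 0.07 and -0.07 ± 0.06). They fell in methionine restriction (-1.27 ± 0.09 and -1.39 ± 0.08), further than the median of these subunits.

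T cell genes moved both ways in methionine restriction. Those named first here rose in it and were not called in histidine restriction, and they do not stand for T cell genes as a set. Of the 16 T-lineage markers PTPRC alone rose in methionine restriction and 7 fell, while 4 rose and 2 fell at equal totals. PTPRC, the phosphatase CD45, averaged 6565 ± 714 normalised counts in histidine restricted libraries and 5512 ± 907 in histidine controls, and 11710 ± 2715 in methionine restricted libraries and 5203 ± 890.3 in methionine controls (SD, n = 5 each), and its histidine response of 0.26 ± 0.11 was not called (adjusted p = 0.0921). That response was called with scaling by a trimmed mean of ratios (adjusted p = 0.0458), with a replicate block (adjusted p = 0.0251), without library 3 of histidine restriction (adjusted p = 0.0429) and without histidine control 1 (adjusted p = 0.0444). LCP2, the adaptor SLP-76, rose by 0.98 ± 0.12, the receptor CD6 by 0.88 ± 0.08, the CD47-binding receptor SIRPG by 1.68 ± 0.10 and STING1, the sensor of cytosolic DNA signals, by 1.87 ± 0.14, none of them called in histidine restriction, and each difference was called. Of 24 core genes of T cell receptor signalling, 4 rose and 6 fell in histidine restriction and 5 rose and 9 fell in methionine restriction, and under equal totals 7 rose and 3 fell in methionine restriction, so the balance of this list depends on the scaling. The difference was above 0 for 2 and below 0 for 5 of the 24, beside 18.6% and 15.8% of all tested genes. Of the 16 markers it was above 0 for 3 and below 0 for 2. GPR183, a migration receptor, fell in both and further in histidine restriction, at -2.35 ± 0.24 in histidine and -1.21 ± 0.19 in methionine restriction (difference -1.14 ± 0.30, adjusted p = 0.00519). GAA, the lysosomal glucosidase, had 1623, 1422, 1387, 1400 and 1379 normalised counts in histidine restricted libraries, against 1672, 1490, 1337, 1602 and 1202 in histidine controls. Methionine restricted libraries had 68.8, 253, 254, 472 and 39.3, against 1518, 1280, 1252, 1667 and 1144 in methionine controls. The methionine restricted libraries lay below every control but ranged more than 10-fold among themselves, and the difference was 3.13 ± 0.58 (adjusted p = 0.000211). PAQR6, a progestin receptor family member, likewise fell in methionine restriction, at -3.26 ± 0.35, and was not called in histidine restriction, at -0.09 ± 0.20. RUNX2, a transcription factor of bone and T cell development, and GIMAP5, a lysosomal GTPase of lymphocytes, rose in methionine restriction, at 2.47 ± 0.53 and 1.84 ± 0.24, and were not called in histidine restriction, at 0.36 ± 0.22 and -0.52 ± 0.19 (adjusted p = 0.252 for RUNX2 and 0.0509 for GIMAP5). RUNX2 had 11.9 normalised counts in methionine control 1, against 96.8 to 166 in the other methionine controls, so the size of its rise rests in part on that library. The histidine fall of GIMAP5 was called without histidine control 2 (adjusted p = 0.0282) or 4 (adjusted p = 0.0403).

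The remaining lists held smaller or mixed changes. Over all tested genes, 16.7% rose and 12.4% fell in histidine restriction, and 27.9% rose and 25.9% fell in methionine restriction. The difference was above 0 for 18.6% and below 0 for 15.8% of all tested genes. A count near these shares is no more than all genes show. Of 31 proteasome subunits, 13 rose and 6 fell in histidine restriction, 8 rose and 9 fell in methionine restriction, and the difference was above 0 for 8 and below 0 for 3. PSMB6, a catalytic subunit, rose in histidine restriction, at 0.54 ± 0.07, and was not called in methionine restriction, at -0.05 ± 0.08. Of 28 eIF2 kinase and mTORC1 sensing genes, 5 rose and 3 fell in histidine restriction and 7 rose and 6 fell in methionine restriction. Among them EIF4EBP1, the translational repressor that mTORC1 inactivates, was opposed, at 0.45 ± 0.08 in histidine and -0.64 ± 0.13 in methionine restriction. Of 28 immediate-early and early response factors, 3 rose and 11 fell in histidine restriction, and 3 rose and 13 fell in methionine restriction, with IER2 at -0.40 ± 0.07 in histidine and -1.23 ± 0.07 in methionine restriction. Of 25 thioredoxin, glutathione and NRF2 genes, 5 rose and 7 fell in histidine restriction and 10 rose and 11 fell in methionine restriction, and GPX4, which reduces lipid peroxides, fell in methionine restriction at -1.04 ± 0.09 and was not called in histidine restriction at 0.09 ± 0.06. Of 21 p53 targets, 6 rose and 2 fell in histidine restriction and 8 rose and 6 fell in methionine restriction, and PMAIP1, the pro-apoptotic protein NOXA, was opposed at 0.26 ± 0.08 in histidine and -0.96 ± 0.11 in methionine restriction. Its histidine rise (adjusted p = 0.0257) lost its call without replicate 1 or 5 of histidine restriction or histidine control 2 or 3, at adjusted p of 0.0525 to 0.057. Without histidine control 3 that response was 0.21 ± 0.08 (adjusted p = 0.0546). Of 28 autophagy and lysosome genes, 6 rose and 3 fell in histidine restriction and 9 rose and 11 fell in methionine restriction. ULK1, the kinase that starts autophagy, fell in methionine restriction at -0.58 ± 0.09 and was not called in histidine restriction at 0.19 ± 0.10. Of 16 genes of HLA class I presentation, 2 rose and 2 fell in histidine restriction and 4 rose and 4 fell in methionine restriction, of 11 genes of the MYC network 2 rose and 3 fell in histidine and 5 rose and 5 fell in methionine restriction, and of 8 genes of cholesterol export 2 rose and 1 fell in histidine and 3 rose and 2 fell in methionine restriction.

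**Figure D4:**
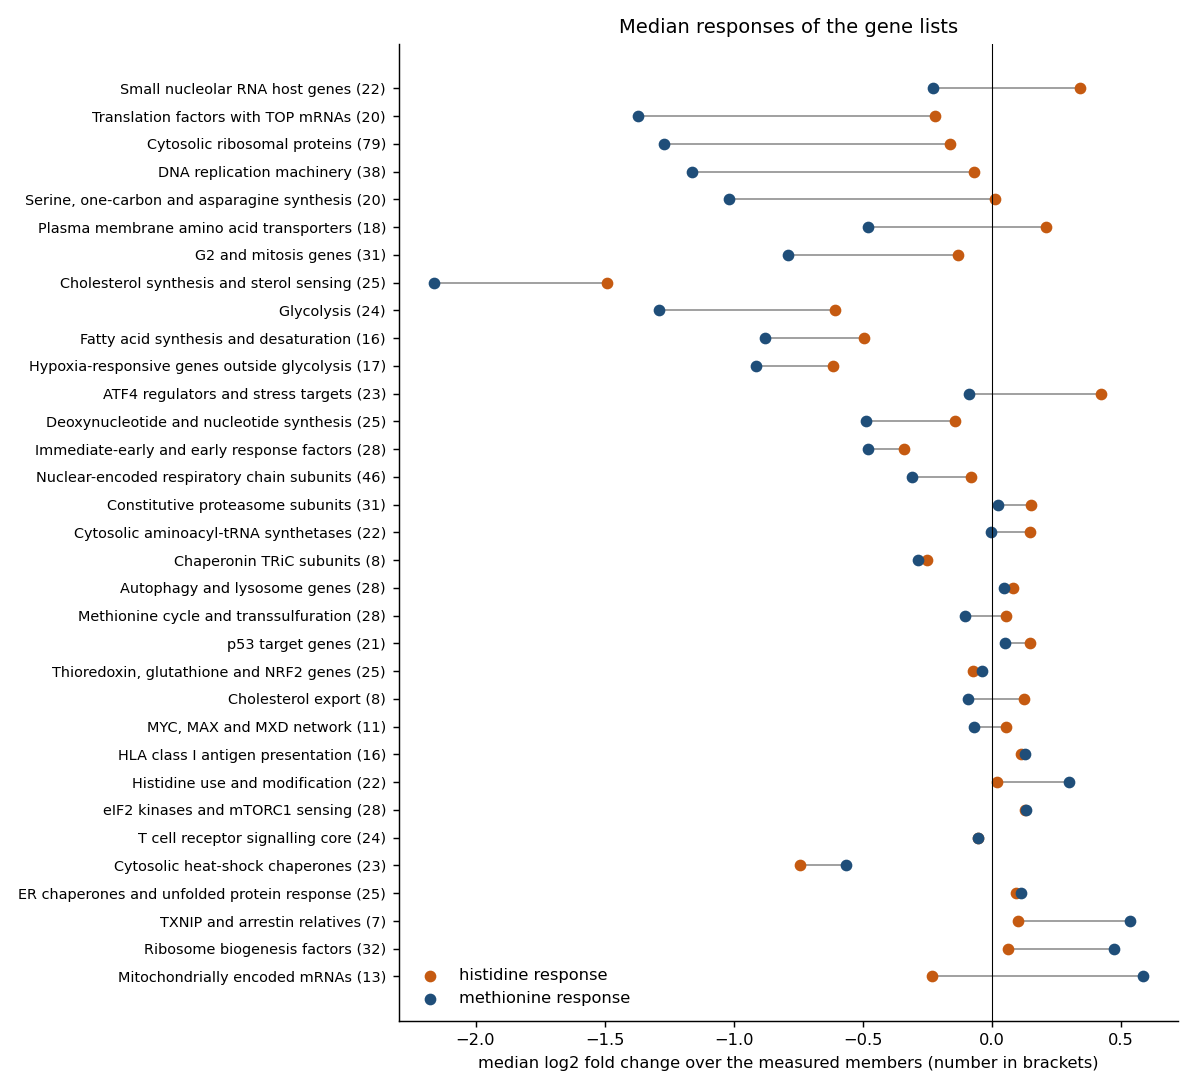
The plot of list medians shows, for each gene list, the median log2 fold change of its measured members in histidine restriction and in methionine restriction, joined by a line, with the number of measured members in brackets and lists ordered by the median difference. Ribosomal protein, TOP, replication and serine synthesis lists lie near 0 in histidine and below -1 in methionine restriction, and cholesterol synthesis lies at -1.49 and -2.16.

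The groups of genes were also followed in separate libraries of the series, restricted in phenylalanine or in tryptophan and set against their own 5 control libraries, which the comparison above did not use, on the same scale and threshold. In phenylalanine restriction 4.23% of the 16106 genes also tested here were called higher and 6.38% lower. Genes that fell in both restrictions with a called difference were lower in phenylalanine restriction in 43.3% of 534 and higher in 0.187%, and those that fell in both without one were lower in 22.0% of 642. Genes that rose in both without a called difference were higher in 11.1% of 1178, and 480 that rose in both with one were higher in 15.2%. Of the opposed genes, 2.45% of the 286 that rose in histidine restriction were higher and 8.74% lower in phenylalanine restriction, and 3.29% of the other 152 were higher and 9.87% lower, near the shares of all genes. In tryptophan restriction 23.9% of 15948 genes were called higher and 28.6% lower. Genes that fell in both with a called difference were lower in 62.7% of 531, and opposed genes that fell in histidine restriction were lower in 55.3% of 152 and higher in 13.2%. Genes that rose in both without a called difference were higher in tryptophan restriction in 33.2% of 1175 and lower in 29.1%. Those that rose in both with one were higher in 37.3% of 480 and lower in 31.0%. Opposed genes that rose in histidine restriction were higher in tryptophan restriction in 39.2% of 286 and lower in 31.5%. Among the named ones, CHAC1 rose by 1.38 ± 0.13, SLC7A11 by 1.50 ± 0.09, STC2 by 1.48 ± 0.06, PSAT1 by 1.10 ± 0.06 and SNHG5 by 2.88 ± 0.26 log2 units in tryptophan restriction, each called, and MAT2A fell, at -0.67 ± 0.09. SPNS3 (2.90 ± 0.12), SLC43A1 (1.41 ± 0.07), HOXB9 (0.96 ± 0.09) and CALB2 (0.95 ± 0.15) also rose in tryptophan restriction. So did GPT2 (0.90 ± 0.07), EIF4EBP1 (0.85 ± 0.09), SHMT2 (0.61 ± 0.06) and SLC1A5 (0.42 ± 0.07). Other named genes that rose in histidine and fell in methionine restriction did not rise in tryptophan restriction. ATF3, PMAIP1, CDC45 and TPX2 fell, at -0.79 ± 0.10, -1.24 ± 0.08, -1.25 ± 0.09 and -0.51 ± 0.05. CARS1 (-0.11 ± 0.06), SLC7A1 (-0.15 ± 0.08), SLC38A1 (0.04 ± 0.06) and MTR (0.02 ± 0.09) were not called. On the reverse side MME, SEC62, ATF4, DNAJA1, CHORDC1 and CCT6A fell like MAT2A. VSIR rose (0.47 ± 0.15), and PTPN14 and CTC1 were not called. In phenylalanine restriction CALB2 (-1.21 ± 0.22), SHMT2 (-0.85 ± 0.10), SLC43A1 (-0.75 ± 0.14) and TPX2 (-0.59 ± 0.09) fell. The other named genes that rose in histidine and fell in methionine restriction were not called there. Of the reverse side DNAJA1 and CHORDC1 rose there, MME and VSIR fell and the others were not called. TXNIP rose by 4.81 ± 0.23 log2 units in phenylalanine and by 0.99 ± 0.06 in tryptophan restriction. Of the other named genes that rose in both without a called difference, RGS16, ZNF185, ANTKMT and AARS1 rose in tryptophan restriction. KLF10 fell there (-0.27 ± 0.09), and IRF7, LINC01260, RAD9B and IARS1 were not called.

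The coding sequences of these groups were compared in their use of the restricted amino acids, as a description with no test. Among 12472 tested protein-coding genes with a coding sequence, 99.4% of those listed, histidine codons made up a median of 2.45% and methionine codons 2.11% of all codons. Genes that rose in histidine and fell in methionine restriction had medians of 2.03% and 2.29%, over 262 genes, and those that fell in histidine and rose in methionine restriction had 2.71% and 2.05%, over 149 genes. Genes that rose in methionine restriction alone had 2.63% and 1.96%, over 1434 genes, and genes that fell in it alone had 2.35% and 2.20%, over 1339 genes. The medians of the groups lie within 1 percentage point of each other.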

How the data were processed

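RNA of Jurkat cells was sequenced per the labels, and the tools in the submitters' processing notes are FastQC (0.11.9), kallisto (0.50.1) and DESeq2 (1.44.0), with the build GRCh38. The deposited values are the authors' normalised counts, a non-negative signal per gene scaled separately in the table of each amino acid. Whole reads could not be recovered from them (55.6% to 81.6% of low values were whole multiples within 0.1), so no count model was run and no interval from read depth is given.

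Groups come from the labels. The tests used R 4.3.3 and limma 3.58.1 on the log2 of the normalised count + 1 (lmFit, eBayes with trend, two-sided, Benjamini-Hochberg over all genes tested, called below 0.05), each response within its own table and their difference over the 4 groups. Genes needed a mean of at least 10 in both tables. Means ± SD are of normalised counts. On simulated data of 16505 genes built from these libraries, the fit of the difference recovered 17.5% of 57 genes changed 1.5-fold, 56.9% of 72 changed 2-fold and 70.4% of 71 changed 4-fold, and called 3 unchanged genes. Far fewer genes were changed there than the 34.4% called in the data, and the adjustment of p is stricter where fewer genes change. These shares therefore do not give the recovery of the reported fit.

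The comparison, the gene lists and the members were chosen with earlier results of these data known. Named genes are, at a mean of at least 100 in the higher group of each table, the 8 leading opposed and shared genes in each direction and the 8 leading differences in each direction, the 3 members of each list with the smallest adjusted p of the difference, and a set listed by name, some left out for length. Other named genes, among them ATF3, SLC7A1, SLC3A2, CEBPB, CEBPG, ATF5, PPP1R15A, GPT2, PSPH, MTR, HSPA8, DNAJB6, CD79A and the genes with printed motifs, were chosen after their values were seen. Promoters are RefSeq windows of GRCh38.p14, matched by symbol for 11186 genes. Alternatives were other pseudocounts, filters, scalings (unweighted trimmed mean of M values, equal totals), library weights, a replicate block, the 4-group fit for each response and leaving out each library.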

Additional observations from a re-analysis of the deposited data

Results flagged for a closer look

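The histidine and methionine responses differed in 5671 genes by the interaction test, as described above. Of 524 groups of 5 libraries examined for single genes, 26 held 1 library that lay apart from the other 4 by Dixon's criterion, which chance gives in about 1 in 20 groups. No cause was tested for any of them.

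Histidine control 3 was high for COL3A1 (7976), COL1A1 (4358), HSPA1A (3495) and TXNIP (1534), in normalised counts here and below. Library 1 of histidine restriction was high for SLC7A1 (9412), MYC (3173) and GAA (1623) and low for CYP51A1 (161.1). In the same group library 4 was high for HSPA1A (53.4) and library 3 low for SEL1L (3297). Histidine control 1 was low for HMGCS1 (4549), IMPDH2 (4307), EIF3E (7526) and RAD9B (17.61), and histidine control 5 was high for COX4I1 (6689) and low for SLC7A1 (4708).

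Among methionine restricted libraries, library 1 was low for PTPN14 (350), library 2 low for MTHFD1L (903.3), library 3 high for MKI67 (11850), library 4 high for EIF3E (2420) and ZNF185 (308.8), and library 5 low for CD6 (1096) and ULK1 (1482). Among methionine controls, library 2 was high for AARS1 (11772), library 3 high for CARS1 (2790) and library 5 low for ANTKMT (87.01).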

How the results depend on the processing

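Across the alternatives, every count of genes called, of shared, opposed and one-sided genes stayed within 1.5 times its value in the report. No named gene's called difference or called response changed sign. The difference of TXNIP, which was not called, did change sign when its highest histidine control was left out, as given above. Leaving out 1 library at a time gave 5248 to 5684 genes with a called difference, 3847 to 5065 in the histidine response and 8370 to 8990 in the methionine response, where the tables hold 4946 and 8990 called genes. The same fits gave 1514 to 1875 shared genes with no called difference, 800 to 1056 with one, 352 to 475 opposed genes, 521 to 734 called in histidine restriction alone and 3020 to 3416 in methionine restriction alone. Library 1 of histidine restriction gave the lowest value of most of these. Of the named genes' differences, 28 values lost and 18 gained their call, 3270 were called in both fits and 550 in neither. Scaling by the trimmed mean of M values removed the histidine call of CCT6A, EIF3E (adjusted p = 0.0564) and ENO2 (adjusted p = 0.0542) and the methionine call of GOT1 (adjusted p = 0.0602), and equal totals added a methionine call for CCT7 (adjusted p = 0.013). Under equal totals the median methionine response was 0.04 in the ATF4 list, 0.12 in the synthetases, 0.02 in the methionine cycle and 0.07 in the T cell receptor list, all of them below 0 as deposited. Limits of the files are that read depth is unknown, that each table was scaled separately and that scaling to equal totals put 43.6% of called differences above 0, against 54.2% as deposited.

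Replicate numbers did not pair the libraries: the correlation of same-numbered deviations ran from -0.06 to 0.09 over the 10 pairs, and 1 pair matched its own number best. With the replicate number as a block within each table, 5265 genes had a called difference, 4600 a called histidine response and 8607 a called methionine response, with 1742 shared, 899 unequal and 371 opposed genes.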
